A study of Homo sapiens with 6 samples.

Results

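The genes described here encode enzymes and membrane carriers of glycolysis and gluconeogenesis. The list holds 30 genes, and each was matched by its symbol to 1 row of the 60605 gene rows in the deposited table. It covers glucose and lactate carriers, the enzymes from hexokinase to lactate dehydrogenase with their isoenzymes, the PFKFB regulators of phosphofructokinase, and 4 enzymes of gluconeogenesis. Of the 30 genes, 23 had a mean of at least 1 FPKM (fragments scaled by gene length and by the library total) over the 6 libraries and were tested among 12829 genes.

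Glycolysis splits glucose into pyruvate in the cytosol, and lactate dehydrogenase converts pyruvate to lactate, which leaves the cell through monocarboxylate carriers. Gluconeogenesis runs the reversible steps backwards and bypasses the irreversible ones with pyruvate carboxylase, phosphoenolpyruvate carboxykinase, fructose bisphosphatase and glucose phosphatase. Hepatocytes use liver isoenzymes such as the liver pyruvate kinase, and carry glucose both ways through SLC2A2. Hepatoma cells often carry other isoenzymes, such as hexokinase 2 (HK2) and the PKM form of pyruvate kinase.

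RNA was sequenced from Huh-7, an established human hepatoma cell line, in 2 groups of 3 libraries. The cells of both groups had been loaded with oleic acid (100 µM, 24 h) and then starved, so no group without lipid loading enters the comparison. The control group received vehicle (DMSO, 0 µM pectolinarigenin). The treated group received 100 µM of the plant flavone pectolinarigenin over 24 h, which is the only dose and time. Nothing in the labels ties the 3 libraries of each group to independent cultures. The p-values therefore reflect only how much these libraries varied, and that variation may be technical.

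Total counts per library ran from 15140022 to 20311261. All 10 hepatocyte and hepatoma markers checked, among them ALB, AFP and HNF4A, were present, with summed levels of 12682 to 12896 FPKM in the control libraries and 9137 to 9943 FPKM in the treated ones, and 9 of the 10 fell. Summed marker levels of other cell types were low and lower with treatment. The 4 fibroblast or stellate markers summed to 0.36 to 0.49 FPKM in the controls and 0.13 to 0.15 FPKM in the treated libraries, with DCN at 0 counts. The 3 endothelial markers summed to 2.32 to 2.63 FPKM and then 1.16 to 1.37 FPKM, nearly all PECAM1, which fell (log2 fold change -1.05, adjusted p = 1.12e-06, edgeR). The 3 leukocyte markers summed to 2.64 to 3.52 FPKM and then 1.89 to 2.06 FPKM, nearly all CD14, which also fell (-0.63, adjusted p = 0.00558, edgeR). VWF, CDH5 and PTPRC were at most 0.03 FPKM. The part of these marker levels in the results was not tested. In bulk RNA, fewer cells that express a gene and less of its RNA per cell cannot be told apart.

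Treated library 3 stood apart from treated libraries 1 and 2 in these genes, so results are given with and without it. It had the highest treated value in 20 of the 23 tested genes, where this held for 32.2% of all tested genes. In 13 of the 23 it was also the highest of all 6 libraries (23.3% of all tested genes). It had the lowest treated value in 2 of the 23, against 42.0% of all tested genes. The median ratio of its FPKM to the mean of treated libraries 1 and 2 was 1.33 over the 23 genes and 0.981 over all tested genes. The ratio ran from 0.794 for PFKFB2 to 2.53 for PFKFB3, and it was at least 1.2 in 16 of the 23 genes (7.62% of all tested genes). These genes share the same library, so they are not independent observations of it. The median coefficient of variation of the 23 genes was 3.19% among control libraries and 18.5% among treated libraries, against 5.06% and 7.53% over all tested genes. The total count of treated library 3 (20311261) exceeded those of the other 5, and the part of depth in its difference was not tested. The difference of library 3 was not limited to these genes. Over all genes with enough counts, chi-square per degree of freedom was 9.85 against treated library 1 and 7.59 against treated library 2. It was 4.10 between treated libraries 1 and 2, and 1.50 to 2.56 between control libraries.

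Of the 23 tested genes, 6 rose and 6 fell at an adjusted p under 0.05 (edgeR quasi-likelihood test with Benjamini-Hochberg adjustment over all tested genes), and 11 did not pass. The background was 25.3% higher and 25.3% lower, or 50.6% in either direction, so the 26.1% in each direction lay near it. In 5 of the 23 genes every treated library lay above every control library (33.5% of all tested genes), and in 4 every treated library lay below (25.4%). The genes that rose were the glucose carrier SLC2A1, HK2, the neuronal-type enolase ENO2, the regulators PFKFB3 and PFKFB2, and the lactate carrier SLC16A1. Those that fell were the aldolases ALDOC and ALDOA, the phosphofructokinase subunits PFKL and PFKM, PGM1 and GAPDH. The median log2 fold change was -0.13 over the 23 genes and 0.00071 over all tested genes, and the median absolute log2 fold change was 0.25 in both.

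Without treated library 3, 5 of the 23 genes rose and 13 fell, where 24.9% and 24.7% of all genes tested that way did (49.7% in either direction). The 5 that rose were among the first 6, with PFKFB3 lost. The 6 that fell with all libraries were among the 13, and GPI, LDHA, PGAM1, PGK1, PKM, SLC16A3 and TPI1 were added. In TPI1, PGK1, PGAM1, PKM, LDHA and SLC16A3, which fell in that fit, treated library 3 was higher than every control library. That fit has 2 treated libraries, and its p-values rest on their spread and that of the controls. Library 3 was singled out by its high values in these same genes. Leaving it out therefore lowers most of their fold changes and treated spreads. The 13 falls and their p-values follow in part from that choice and support nothing on their own.

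**Figure D1:**
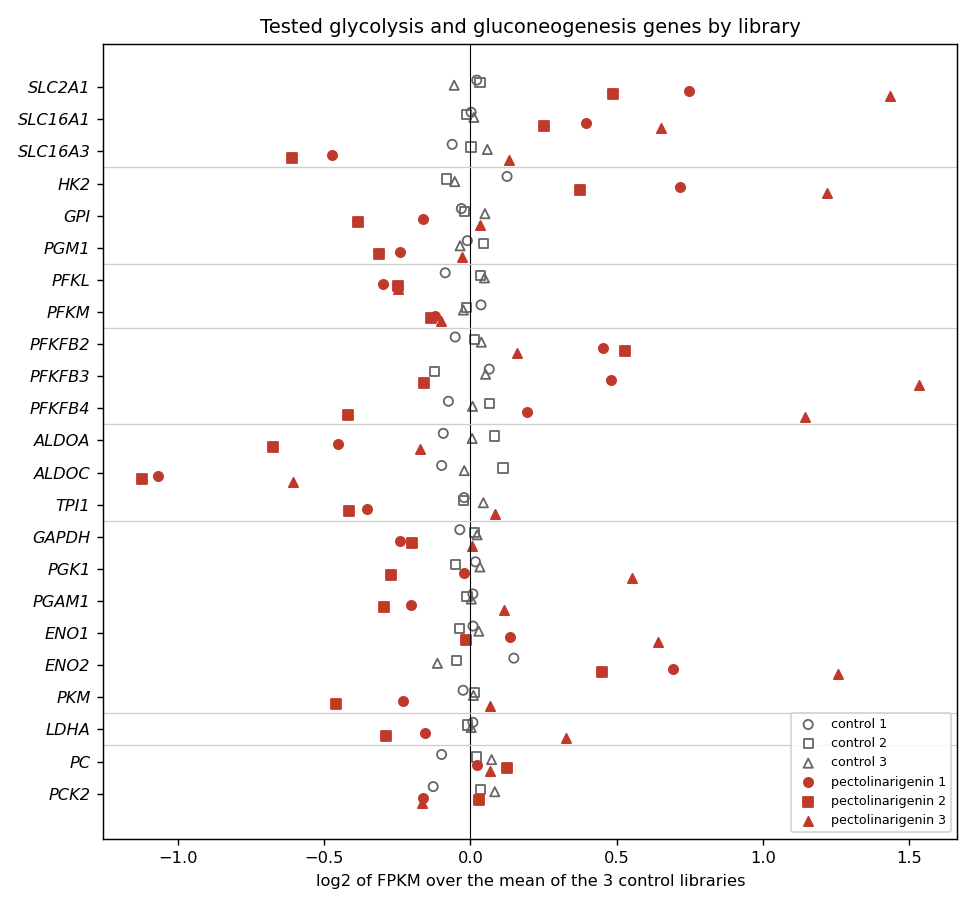
The 23 tested genes in pathway order, with the log2 of each library's FPKM over the mean of the 3 control libraries on the x axis. Open grey symbols are control libraries and filled red symbols treated libraries, with circles, squares and triangles for libraries 1, 2 and 3. The red triangle is the rightmost red symbol in 20 of the 23 genes.

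Promoter sequence was examined as a description of these genes, and its link to treated library 3 was not tested. RefSeq (GRCh38.p14) gave a promoter for 26 of the 30 genes, and the 250 bases before each start site were searched on both strands for ACGTG, the core of the motif bound by hypoxia-inducible factors, and for the E-box CACGTG, which contains it. ACGTG occurred in 9 of the 26 (34.6%) and in 18.5% of all 35116 promoters. CACGTG occurred in 3 of the 26 (11.5%) and in 6.34% of all promoters. Among the genes that rose, 2 of 4 with a promoter held ACGTG, and 3 of 6 among those that fell did. So did 4 of 11 that did not pass and 0 of 5 that were not tested. A match describes the letters in this window and is not a measured binding site.

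The promoters printed here are those of HK2 and ENO2, which rose and hold the motif, of ALDOC, which fell and holds it, of LDHA, with the most matches, and of PFKFB3, with the highest ratio of treated library 3 and no match. They were chosen after the values were seen. They are written 5′ to 3′ on the strand of the gene, ending at the base before the start site, with ACGTG or its reverse complement CACGT in capitals. Matches that overlap read as 1 longer run, as in CACGTG. The windows are HK2 at chr2:74833877-74834126 (plus strand), ENO2 at chr12:6914330-6914579 (plus), ALDOC at chr17:28576896-28577145 (minus), LDHA at chr11:18394313-18394562 (plus) and PFKFB3 at chr10:6144671-6144920 (plus).
HK2: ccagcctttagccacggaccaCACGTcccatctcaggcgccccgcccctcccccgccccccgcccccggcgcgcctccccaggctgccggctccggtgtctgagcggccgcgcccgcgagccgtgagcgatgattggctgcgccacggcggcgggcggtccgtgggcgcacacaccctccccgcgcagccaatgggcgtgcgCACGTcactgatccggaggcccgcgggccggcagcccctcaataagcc
ENO2: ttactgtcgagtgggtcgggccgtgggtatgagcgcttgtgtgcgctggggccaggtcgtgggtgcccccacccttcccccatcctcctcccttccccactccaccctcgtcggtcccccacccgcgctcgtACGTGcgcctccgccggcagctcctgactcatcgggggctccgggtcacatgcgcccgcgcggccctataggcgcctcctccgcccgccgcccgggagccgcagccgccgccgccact
ALDOC: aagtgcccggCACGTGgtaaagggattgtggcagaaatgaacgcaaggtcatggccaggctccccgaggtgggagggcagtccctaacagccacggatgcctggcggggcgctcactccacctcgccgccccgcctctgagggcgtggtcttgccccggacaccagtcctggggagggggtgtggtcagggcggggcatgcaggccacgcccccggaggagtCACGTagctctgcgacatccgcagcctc
LDHA: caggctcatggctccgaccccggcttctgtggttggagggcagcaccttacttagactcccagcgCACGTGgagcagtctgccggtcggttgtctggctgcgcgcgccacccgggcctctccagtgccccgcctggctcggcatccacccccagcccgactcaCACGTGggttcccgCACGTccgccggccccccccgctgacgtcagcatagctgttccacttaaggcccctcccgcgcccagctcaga
PFKFB3: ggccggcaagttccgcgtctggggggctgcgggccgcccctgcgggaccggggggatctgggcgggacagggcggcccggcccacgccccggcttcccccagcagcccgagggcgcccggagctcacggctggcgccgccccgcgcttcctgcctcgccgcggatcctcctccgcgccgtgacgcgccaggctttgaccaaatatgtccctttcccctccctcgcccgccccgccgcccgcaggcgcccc
ACGTG was counted 2 times in the HK2 window, 1 time for ENO2, 3 times for ALDOC, 5 times for LDHA and 0 times for PFKFB3. Both strands of a CACGTG count as separate matches.

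SLC2A1 (ENSG00000117394, chromosome 1, 42925375 to 42959176, GRCh38) encodes a glucose carrier found in most growing cells. It measured 3.85, 3.88 and 3.65 FPKM in control libraries 1 to 3 and 6.37, 5.32 and 10.25 FPKM in treated libraries 1 to 3. Every treated library lay above every control library, and library 3 was the highest. It rose 1.89-fold (log2 fold change 0.92, SE 0.18, adjusted p = 0.000498, edgeR), and by 0.58 on the log2 scale (SE 0.084) without treated library 3. SLC2A3, a high-affinity glucose carrier, was not tested, with 0 to 7 counts per library.

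The monocarboxylate carriers SLC16A1 and SLC16A3, which move lactate across the plasma membrane, had different patterns. SLC16A1 (ENSG00000155380, chromosome 1, 112911847 to 112957013) measured 30.7, 30.4 and 30.9 FPKM in the control libraries and 40.35, 36.5 and 48.2 FPKM in the treated ones. The groups did not overlap, and SLC16A1 rose 1.33-fold (log2 fold change 0.41, SE 0.083, adjusted p = 0.000871, edgeR). SLC16A3 measured 8.52, 8.91 and 9.26 FPKM in the controls against 6.41, 5.83 and 9.75 FPKM. Treated libraries 1 and 2 lay below the controls and library 3 above them. SLC16A3 did not pass with all libraries (-0.31, SE 0.14, adjusted p = 0.0732) and fell without library 3 (-0.58, SE 0.063, adjusted p = 2.12e-08, edgeR). With all libraries it also fell in edgeR with a replicate block (adjusted p = 0.00224) and with no expression filter (0.000393). The block pairs libraries by number, although same-numbered libraries showed correlations of only -0.0025, 0.016 and 0.0018 in their deviations from the group means. Without the filter, the adjusted p of PFKFB4 in edgeR was 3.40e-08 against 0.168 with it, although its treated values spanned the controls. Calls gained in these 2 fits therefore support nothing on their own.

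Hexokinases trap glucose in the cell by phosphorylation. HK2 (ENSG00000159399, chromosome 2, 74833981 to 74893359) measured 14.1, 12.2 and 12.4 FPKM in the control libraries and 21.2, 16.7 and 30.0 FPKM in the treated ones, with no overlap between groups. It rose 1.72-fold (log2 fold change 0.78, SE 0.15, adjusted p = 0.000504, edgeR), and by 0.51 (SE 0.075) without treated library 3. HK1 was nearly absent, with 12 counts in all 3 controls together and 10 in the treated libraries. HK2 accounted for 98.3% to 98.8% of the summed FPKM of HK1, HK2, HK3 and HKDC1 in every library, since HK3 had 0 counts and HKDC1 reached at most 0.33 FPKM. A count of 0 allows up to 0.148 to 0.198 CPM (library-scaled counts) in a library, for counting error alone.

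GPI interconverts glucose phosphate and fructose phosphate, and PGM1 links glucose phosphate to glycogen. GPI measured 22.95, 23.1 and 24.3 FPKM in the controls and 21.0, 18.0 and 24.0 FPKM in the treated libraries, which overlapped through library 3. PGM1 (ENSG00000079739, chromosome 1, 63593276 to 63660245) measured 23.45, 24.4 and 23.05 FPKM against 20, 19.0 and 23.2 FPKM. PGM1 fell (-0.22, SE 0.073, adjusted p = 0.0189, edgeR) although library 3 overlapped the controls. It missed the threshold without control library 1 (adjusted p = 0.0526) or 2 (0.0747) or treated library 1 (0.0505) or 2 (0.101), and in limma on log2(FPKM + 1) (0.0676) and log2(FPKM + 0.1) (0.0692). GPI did not pass with all libraries (-0.20, SE 0.084, adjusted p = 0.0645) and fell without library 3 (-0.31, SE 0.059, adjusted p = 9.49e-05, edgeR). With all libraries GPI also fell in edgeR with a replicate block (adjusted p = 0.0113) and with no expression filter (0.0247). Those fits have the limits given for SLC16A3.

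Phosphofructokinase commits sugar to glycolysis and is a tetramer of subunits. PFKL (ENSG00000141959, chromosome 21, 44300051 to 44327376), the liver-type subunit, measured 22.3, 24.3 and 24.5 FPKM in the controls and 19.3, 19.96 and 19.97 FPKM in the treated libraries. PFKM (ENSG00000152556, chromosome 12, 48105139 to 48146404), the muscle-type subunit, measured 18.1, 17.5 and 17.3 FPKM against 16.2, 16.05 and 16.4 FPKM. For both subunits the groups did not overlap and library 3 lay beside libraries 1 and 2. PFKL fell by 0.30 on the log2 scale (SE 0.056, adjusted p = 0.000402, edgeR) and by 0.32 without library 3. PFKM fell by 0.16 (SE 0.054, adjusted p = 0.0237). It missed the threshold without control library 1 (adjusted p = 0.0796), 2 (0.0629) or 3 (0.0516) or treated library 2 (0.0773), without TMM factors (0.0688), with no expression filter (0.136) and in limma on log2(FPKM + 1) (0.0509) and log2(FPKM + 0.1) (0.0521). PFKP, the platelet-type subunit, had a total of 12 counts in the controls and 9 with treatment.

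The PFKFB enzymes make and remove a fructose bisphosphate that activates phosphofructokinase and is a different isomer from the one that aldolase splits. PFKFB3 (ENSG00000170525, chromosome 10, 6144934 to 6254644) measured 4.59, 4.03 and 4.55 FPKM in the controls and 6.12, 3.93 and 12.7 FPKM in the treated libraries. PFKFB4 measured 6.29, 6.93 and 6.66 FPKM against 7.58, 4.96 and 14.6 FPKM. In both genes treated library 2 was the lowest of all 6 libraries and treated library 3 the highest. PFKFB3 passed with all libraries (log2 fold change 0.77, SE 0.28, adjusted p = 0.0312, edgeR). Without treated library 3 it had 0.15 (SE 0.12, adjusted p = 0.275). Leaving out control library 1, 2 or 3 kept the log2 fold change at 0.81, 0.71 and 0.79, with adjusted p-values of 0.0941, 0.0932 and 0.0704. DESeq2 gave 0.76 with an adjusted p of 0.22. With a mean of at least 5 FPKM required, edgeR gave 0.76 (adjusted p = 0.0576). The call was also lost in limma, with 0.54 on log2(FPKM + 1) (adjusted p = 0.2) and 0.61 on log2(FPKM + 0.1) (adjusted p = 0.202). PFKFB4 did not pass with all libraries (0.43, SE 0.25, adjusted p = 0.168), had -0.12 without treated library 3 (adjusted p = 0.347) and passed without treated library 2 (0.73, adjusted p = 0.00459, edgeR). With all libraries PFKFB4 also passed in edgeR with no expression filter (0.46, adjusted p = 3.40e-08), but not with a replicate block (0.30, adjusted p = 0.110). The p-value without the filter does not reflect the spread of its treated libraries, from 4.96 to 14.6 FPKM, and supports nothing on its own.

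PFKFB2 (ENSG00000123836, chromosome 1, 207034366 to 207081024), a heart-type form, had the opposite order among treated libraries. It measured 1.72, 1.8 and 1.83 FPKM in the controls and 2.44, 2.57 and 1.99 FPKM in the treated libraries, with no overlap and library 3 the lowest of the treated. It rose by 0.35 on the log2 scale (SE 0.097, adjusted p = 0.00782, edgeR), and by 0.45 (SE 0.089) without library 3. PFKFB1, a liver form, had 4 to 10 counts per library and was not tested.

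**Figure D2:**
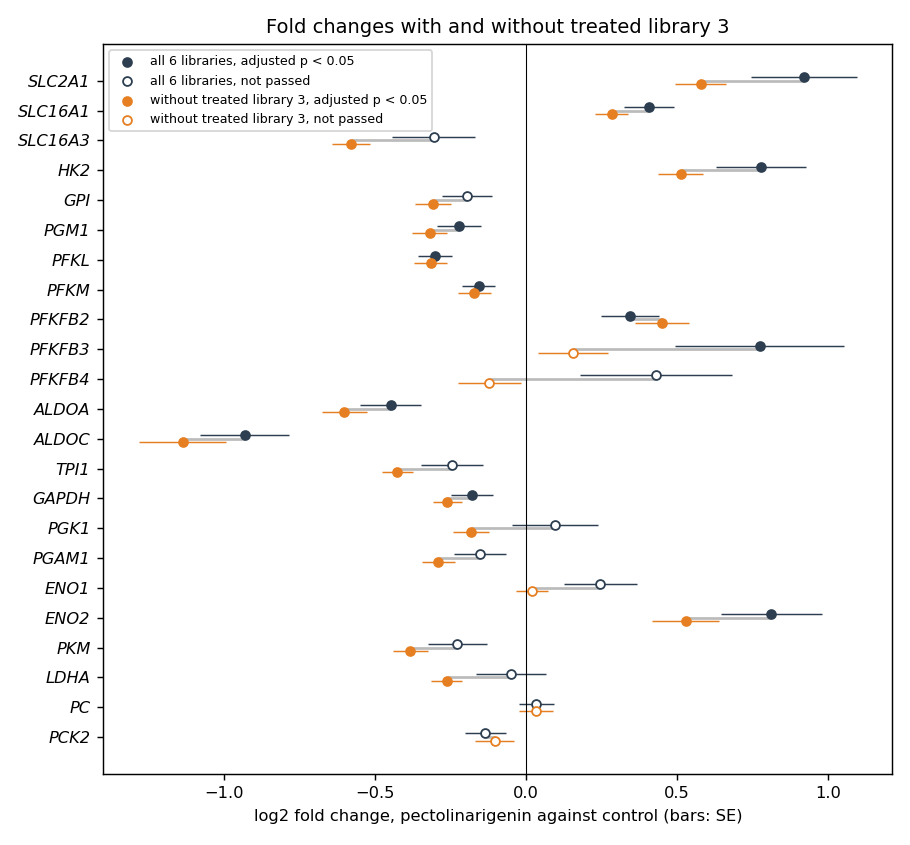
Log2 fold change of pectolinarigenin against control for the 23 tested genes with all 6 libraries (dark) and without treated library 3 (orange), with bars of 1 SE and filled symbols for an adjusted p under 0.05 in edgeR. Filled orange symbols left of 0 number 13 and filled dark symbols left of 0 number 6, while SLC2A1, SLC16A1, HK2, PFKFB2 and ENO2 are filled on the right in both.

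Aldolase splits fructose bisphosphate into triose phosphates. ALDOC (ENSG00000109107, chromosome 17, 28573115 to 28577264), known as the brain-type aldolase, measured 3.64, 4.21 and 3.84 FPKM in the controls and 1.86, 1.79 and 2.56 FPKM in the treated libraries. The groups did not overlap. ALDOC fell by 0.93 on the log2 scale (SE 0.15, adjusted p = 0.000103, edgeR), to 0.524 times the control level, the largest fall among the 23 genes, and by 1.14 (SE 0.14) without library 3.

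ALDOA (ENSG00000149925, chromosome 16, 30064164 to 30070457), the aldolase of most tissues, measured 14.55, 16.4 and 15.6 FPKM against 11.3, 9.71 and 13.8 FPKM. All treated values lay below the controls, and ALDOA fell by 0.45 on the log2 scale (SE 0.10, adjusted p = 0.00188, edgeR). In GENCODE 29, 53.5% of its exonic bases are shared with other genes, 42.3% with the overlapping gene AC093512.2 on the same strand, which had 3 to 18 counts per library. How reads in shared bases were assigned is not given in the sources used here, so the level of ALDOA is uncertain. TPI1, which interconverts the triose phosphates, measured 247, 247 and 259 FPKM against 196, 188 and 266 FPKM. Treated libraries 1 and 2 lay below the controls and library 3 above, and TPI1 did not pass with all libraries (-0.25, SE 0.10, adjusted p = 0.0557) and fell without library 3 (-0.43, SE 0.050, adjusted p = 9.94e-08, edgeR). With all libraries TPI1 also fell in edgeR with a replicate block (adjusted p = 0.00339) and with no expression filter (0.000876). The limits given for SLC16A3 hold for these calls.

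GAPDH (ENSG00000111640, chromosome 12, 6533927 to 6538374) oxidises glyceraldehyde phosphate and had the highest level per length of the 30 genes. It measured 1262, 1306 and 1315 FPKM in the controls and 1096, 1127 and 1298 FPKM in the treated libraries. Treated libraries 1 and 2 lay below all controls and library 3 within their range. GAPDH fell by 0.18 on the log2 scale (SE 0.069, adjusted p = 0.0435, edgeR). Without TMM scaling its adjusted p was 0.0848, and limma gave 0.144 on log2(FPKM + 1) and 0.138 on log2(FPKM + 0.1). Leaving out control library 1, 2 or 3 gave 0.0813, 0.128 and 0.140, and leaving out treated library 1 or 2 gave 0.101 and 0.137. Without treated library 3 it fell by 0.26 (adjusted p = 7.07e-05). GENCODE 29 lists 62 pseudogenes named after GAPDH, so the division of reads among these copies is uncertain.

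The enzymes from PGK1 to PKM carry triose phosphate to pyruvate and yield ATP. PGK1 measured 50.6, 48.3 and 51.1 FPKM in the controls and 49.3, 41.4 and 73.3 FPKM in the treated libraries. It did not pass with all libraries (0.10, SE 0.14, adjusted p = 0.603) and fell without library 3 (-0.18, SE 0.060, adjusted p = 0.0136, edgeR), so its direction turned on that library. PGAM1, the phosphoglycerate mutase, measured 60.7, 59.8 and 60.4 FPKM against 52.3, 49.2 and 65.2 FPKM, and fell only in the fit without library 3 (-0.29, SE 0.054, adjusted p = 6.79e-05) among the fits run. PKM, a pyruvate kinase, measured 63.65, 65.4 and 65.2 FPKM against 55.15, 47.1 and 67.85 FPKM. PKM had -0.23 with all libraries (SE 0.098, adjusted p = 0.0647) and fell without library 3 (-0.38, SE 0.058, adjusted p = 3.85e-06, edgeR). With all libraries PKM also fell in edgeR with a replicate block (adjusted p = 0.00821) and with no expression filter (0.00304), under the limits given for SLC16A3.

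The enolases ENO1 and ENO2 catalyse the same step. ENO1 measured 155, 150 and 157 FPKM in the controls and 169, 153 and 240 FPKM in the treated libraries, and did not pass (0.25, SE 0.12, adjusted p = 0.103). Without treated library 3 it had 0.019 (SE 0.052, adjusted p = 0.784), and it passed without treated library 1 (0.32, adjusted p = 0.0485) or 2 (0.38, adjusted p = 0.0103, edgeR). With all libraries ENO1 also passed in edgeR with a replicate block (0.21, adjusted p = 0.0293) and with no expression filter (0.27, adjusted p = 2.18e-05). These calls, too, have the limits given for SLC16A3. ENO2 (ENSG00000111674, chromosome 12, 6913745 to 6923698) measured 3.14, 2.74 and 2.62 FPKM against 4.58, 3.87 and 6.77 FPKM, with no overlap. It rose 1.76-fold (log2 fold change 0.81, SE 0.17, adjusted p = 0.000918, edgeR), and by 0.53 (SE 0.11) without library 3.

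Counted lactate dehydrogenase RNA was nearly all LDHA, the subunit associated with lactate production. LDHA measured 172, 170 and 171 FPKM in the controls and 153, 140 and 214 FPKM in the treated libraries. The treated values spanned the controls, and LDHA did not pass (-0.050, SE 0.11, adjusted p = 0.740). Without treated library 3 it fell (-0.26, SE 0.051, adjusted p = 0.000118, edgeR). LDHB, the subunit of heart and other oxidative tissues, had a total of 1 count in the controls and 7 with treatment. In GENCODE 29, 33.4% of its exonic bases are shared with AC010197.2 on the same strand, which had 0 to 1 counts per library. As for ALDOA, how reads in shared bases were assigned is not given, so the level of LDHB is uncertain in that part. GENCODE 29 lists 6 pseudogenes named after LDHA. It also lists, among others, 13 named after PGAM1, 5 after PKM, 4 after TPI1 and 4 after ENO1. The uncertainty given for GAPDH therefore touches these genes as well.

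No tested enzyme of gluconeogenesis passed with all libraries. PC, the mitochondrial pyruvate carboxylase, measured 20.3, 22.05 and 22.85 FPKM in the controls and 22.05, 23.7 and 22.8 FPKM in the treated libraries (0.034, SE 0.059, adjusted p = 0.655, edgeR). PCK2, the mitochondrial phosphoenolpyruvate carboxykinase, measured 26.4, 29.6 and 30.6 FPKM against 25.8, 29.45 and 25.7 FPKM (-0.13, SE 0.068, adjusted p = 0.113, edgeR). PCK2 passed without control library 1 (-0.20, adjusted p = 0.0441) or treated library 2 (-0.19, adjusted p = 0.0376). For both genes the groups overlapped. Library 3 lay between the other treated libraries for PC and below both for PCK2. The cytosolic form PCK1, the hormone-regulated enzyme of liver, had 28 to 50 counts per library. FBP1, the liver fructose bisphosphatase, had 23 to 40 counts and a mean of 0.915 FPKM, just under the limit for testing.

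Levels of isoenzymes were compared as shares of the summed FPKM of a family, which also took in family members outside the 30 genes. These shares rest on the gene lengths in the deposited FPKM. For SLC2A1, for instance, the implied length was 6611 bases against 4724 exonic bases in GENCODE 29. The 2-sided exact permutation test of 3 against 3 libraries cannot go below p = 0.10, and over the 14 shares compared the smallest adjusted p was 0.2, so no share passed.

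Among the glucose carriers, SLC2A1 held 7.26%, 6.89% and 6.98% of the summed FPKM in the controls and 26.8%, 20.02% and 45.8% in the treated libraries (exact permutation p = 0.10). The rest was nearly all SLC2A2, the bidirectional carrier of liver, which fell from 50.05 ± 2.04 to 16.9 ± 4.57 FPKM (SD, n = 3 each). SLC2A2 fell by 1.61 on the log2 scale (SE 0.13, adjusted p = 1.54e-07, edgeR) and by 1.42 without treated library 3. The summed FPKM of the glucose carriers was 53.9 ± 2.14 in the controls and 24.2 ± 2.13 in the treated libraries (SD, n = 3 each; exact permutation p = 0.10). In treated library 3, SLC2A2 was lowest of all 6 libraries and SLC2A1 highest.

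Among the monocarboxylate carriers, SLC16A1 held 59.8% to 60.4% in the controls and 73.9% to 74.9% in the treated libraries, with library 3 beside the other 2. SLC16A7, a high-affinity carrier of pyruvate and lactate, held 22.0% to 22.8% and then 9.94% to 14.4%, and it fell by 0.75 on the log2 scale (SE 0.069, adjusted p = 7.32e-07, edgeR). Of the summed FPKM of the pyruvate kinases, PKM held 90.0% to 91.1% in the controls and 97.6% to 98.6% in the treated libraries. ENO2 held 1.61% to 1.95% of the enolases and then 2.43% to 2.71%. In each of these shares the groups did not overlap (exact permutation p = 0.10).

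Shares within the phosphofructokinase subunits and the PFKFB enzymes overlapped between groups. PFKL held 55.3% to 58.6% in the controls and 54.3% to 55.4% in the treated libraries. PFKFB2 held 13.5% to 13.8% in the controls and 14.9%, 22.2% and 6.75% in treated libraries 1 to 3. The summed FPKM of the PFKFB enzymes was 13.0 ± 0.225 in the controls and 19.1 ± 9.28 in the treated libraries (SD, n = 3 each; exact permutation p = 0.40), with 29.5 FPKM in library 3.

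**Figure D3:**
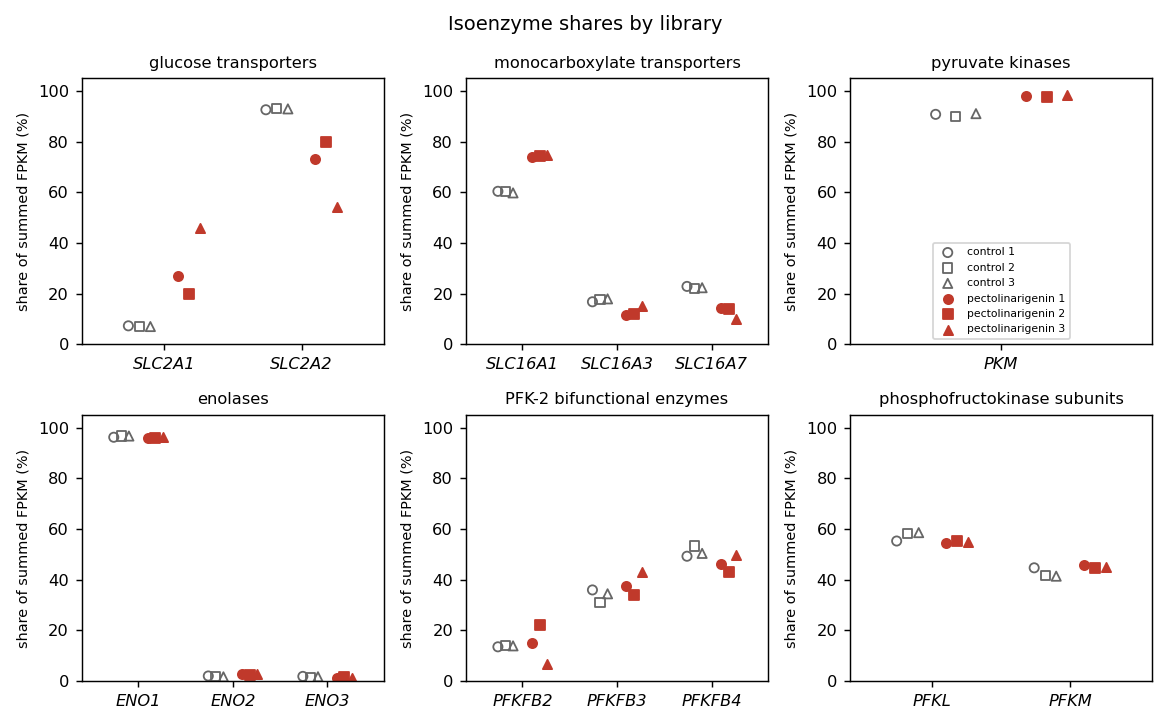
Share of the summed FPKM of 6 families held by each gene, in percent on the y axis, for control libraries (open grey) and treated libraries (filled red), with circles, squares and triangles for libraries 1, 2 and 3. SLC2A1 goes from 6.89% to 7.26% in the controls to 20.02% to 45.8% in the treated libraries, and SLC16A1 from 59.8% to 60.4% to 73.9% to 74.9%. For the pyruvate kinases the remainder is PKLR.

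Other isoenzymes and partners of the same steps formed a list of 20 genes, of which 11 were tested. Of these 7 fell, ADPGK rose and 3 did not pass, where 25.3% of all tested genes fell and 25.3% rose. The median log2 fold change was -0.33. The 7 that fell were PKLR, SLC2A2, SLC37A4, SLC16A7, PGM2L1, PGM2 and BSG, and the last 4 are not liver-type isoenzymes. Among the genes under the limit for testing, TIGAR measured 0.56 to 0.66 FPKM in the controls and 0.97 to 1.06 FPKM in the treated libraries, and HKDC1 0.15 to 0.19 FPKM and then 0.26 to 0.33 FPKM. PKLR, the liver pyruvate kinase, measured 6.44, 7.29 and 6.38 FPKM in the controls and 1.08, 1.18 and 0.93 FPKM in the treated libraries, and fell by 2.70 on the log2 scale (SE 0.12, adjusted p = 4.13e-10, edgeR). SLC37A4, which carries glucose phosphate into the endoplasmic reticulum, fell by 0.91 on the log2 scale (SE 0.070, adjusted p = 1.31e-07, edgeR). Without treated library 3 the list again had 7 lower genes and 1 higher gene.

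In the lists around glycolysis, genes passed in both directions, and their counts are to be read against the 25.3% of all tested genes that rose and the 25.3% that fell. Of 12 tested genes of pyruvate entry into mitochondria 2 rose and 4 fell. Among them PDK4, a kinase that inactivates pyruvate dehydrogenase, rose by 1.41 on the log2 scale (SE 0.13, adjusted p = 8.45e-07, edgeR) and the related PDK3 fell by 0.81 (SE 0.075, adjusted p = 7.78e-07). Of 7 tested pentose phosphate genes 2 rose and 2 fell, with PGD, the phosphogluconate dehydrogenase, higher by 0.32 (SE 0.052, adjusted p = 0.000122, edgeR). Of 7 tested glycogen genes 2 rose and 3 fell, with GYG1, the primer of glycogen synthesis, higher by 0.42 (SE 0.077).

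Of 8 tested genes of the malate-aspartate and glycerol phosphate shuttles 2 rose and 2 fell, with the mitochondrial glycerol phosphate dehydrogenase GPD2 lower by 0.58 (log2 fold change -0.58, SE 0.061, adjusted p = 2.16e-06, edgeR). Of 9 tested transcription regulators 3 rose and 3 fell. FOXO1, a regulator of gluconeogenic genes, rose by 0.64 (SE 0.086, adjusted p = 2.36e-05, edgeR). PPARGC1A, a coactivator of gluconeogenesis, was under the limit for testing. The medians of these 5 lists lay between -0.10 and 0.024, where all tested genes had 0.00071.

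**Figure D4:**
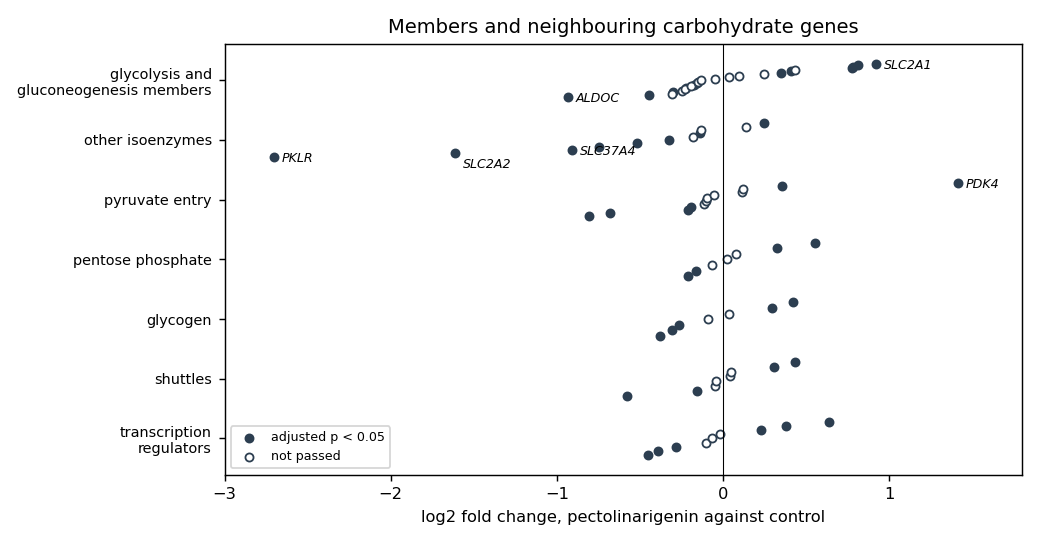
Log2 fold change of the tested members (top) and of 6 lists of neighbouring carbohydrate genes, 1 point per gene, filled for an adjusted p under 0.05 in edgeR. Points are spread vertically within a list by rank only. PKLR at -2.70 and PDK4 at 1.41 are the extremes, and 7 of 11 other isoenzymes are filled left of 0.

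A further list of 10 hypoxia-inducible genes outside glycolysis was drawn up after the values were seen, to place the pattern of treated library 3. Of its 7 tested genes, 7 had their highest treated value in library 3, where this held for 32.2% of all tested genes. Since the list was chosen with that pattern known, the count supports nothing on its own. EGLN3, an oxygen sensor enzyme on the list that was under the limit for testing, went the other way, with 0.72, 0.73 and 0.51 FPKM in treated libraries 1 to 3. With all libraries 3 of them rose (VEGFA, ADM and KDM3A) and 2 fell (P4HA1 and P4HA2). BNIP3, a mitophagy receptor, measured 45.6, 43.4 and 43.9 FPKM in the controls and 48.75, 44.6 and 72.6 FPKM in the treated libraries. P4HA1, a collagen prolyl hydroxylase, measured 74.7, 75.3 and 77.6 FPKM against 35.5, 31.1 and 42.8 FPKM, so it was lower in every treated library. HIF1A, which encodes a subunit of the hypoxia-inducible factor, measured 51.2, 49.2 and 48.6 FPKM against 61.7, 56.6 and 60.6 FPKM, with library 3 between the other treated libraries. Of the genes for other subunits of such factors, ARNT fell by 0.45 on the log2 scale (adjusted p = 0.000103, edgeR). ARNT was lowest in treated library 3, at 8.07 FPKM. EPAS1 did not pass (-0.10, adjusted p = 0.124, edgeR). CA9 had 0 counts. The part of oxygen supply or of any factor in the values of library 3 was not tested.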

How the data were processed

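RNA from 3 control and 3 pectolinarigenin libraries was analysed. The deposited table holds raw counts per gene, and FPKM that the authors scaled by a gene length and by the sum of all listed counts. Tested on 2422 genes, the length implied by count and FPKM varied between libraries by a coefficient of at most 0.0054. Per the submitters' processing notes, the tools were HTSeq 0.6.1, HISAT2 2.0.1 and cutadapt 1.9.1, and the build GRCh38. Which annotation, strand setting and rule for shared reads applied is not given in the sources used here. This also touches members whose exonic bases overlap counted genes on the opposite strand. Among them, FBP1 shares 16.3% with PCAT7 (305 to 514 counts per library) and PFKM 8.58% with SENP1 (576 to 872). SLC16A3 shares 5.36% with CSNK1D (1777 to 3312), PGM1 4.68% with ITGB3BP (443 to 669) and PFKFB2 3.09% with YOD1 (817 to 1241).

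Genes with a mean of at least 1 FPKM (12829) were tested with edgeR 4.0.16 (R 4.3.3; quasi-likelihood test, TMM factors, no covariate, 2-sided), with a Benjamini-Hochberg threshold of 0.05 over all of them. Without TMM factors the median log2 fold change moved by 0.038. SE were derived from the F statistic. On simulated counts for these 12829 genes, 83 of 100 genes changed 1.5-fold and 91 of 100 changed 2-fold were recovered, with 8 unchanged genes called. The simulation gave every gene the same dispersion, set no library apart and changed far fewer genes than were called in the data. It therefore checks the code and does not give recovery or false calls for genes as variable among treated libraries as these members. Total counts were 15140022 to 20311261, so 3 counts equal 0.148 to 0.198 CPM. No pair of libraries in a group agreed within sampling noise (chi-square per degree of freedom 1.50 to 9.85). Alternatives used other scalings, filters, limma 3.58.1 and DESeq2 1.42.0, a replicate block and each library left out. Gene positions are from GENCODE 29. The members and lists were chosen with earlier results of these data known. Besides the 30 genes, the naming rule took each list's gene with the smallest p and genes that passed with an absolute log2 fold change of at least 1. Any other gene was named after its values were seen. Some genes of the neighbouring lists and 1 isoenzyme family are not reported here.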

Additional observations from a re-analysis of the deposited data

How the results depend on the processing

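Over 23 tested genes and 14 alternatives, 262 of the gene results kept their direction and side of the threshold. A further 30 lost the call, 22 gained it and 5 turned direction, all 5 when a library was left out. Of the 22 gains, 6 came with no expression filter and 5 with a replicate block, which have the limits given for SLC16A3. SLC2A1, HK2, SLC16A1, PFKL and ALDOA kept their calls in all 14, and ENO2, ALDOC and PFKFB2 in the 13 that tested them. The genes that rose numbered 6, also without TMM factors and with RLE scaling. They numbered 5 in DESeq2 and in each limma fit, 7 with a replicate block and 8 with no expression filter. With a mean FPKM of at least 5, which tests fewer genes, 3 rose and 5 fell. The genes that fell numbered 6, also in DESeq2 and with RLE scaling, and 4 without TMM factors. They numbered 3 in limma on log2(FPKM + 1), 3 on log2(FPKM + 0.1), 9 with no expression filter and 10 with a replicate block. With single libraries left out, 5 to 8 rose and 3 to 13 fell. Over all genes, 6486 of 12829 were called, 4098 of 7144 with a mean FPKM of at least 5, 7816 of 34374 with no filter, and 5304 to 6547 in the other alternatives. Replicate numbers did not pair the libraries: the correlation of deviations from the group means was -0.0025, 0.016 and 0.0018 for same-numbered libraries. Leave-one-out values with a turned direction ranged from -0.014 to 0.065 for PC, -0.26 to 0.076 for LDHA, -0.12 to 0.73 for PFKFB4 and -0.18 to 0.27 for PGK1. The log2 ratio of summed lactate dehydrogenase FPKM ranged from -0.22 to 0.11 and the PFKFB2 share from -2.89 to 4.84 percentage points. The causes were not tested.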
